A study of Mus musculus with 21 samples.

Results

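The genes described here encode the subunits of the receptors through which glutamate and GABA act in the brain, and their RNA was followed in mouse telencephalon and brain from E13.5 to P7. They were chosen by gene symbol alone, as the AMPA (Gria), delta (Grid), kainate (Grik), NMDA (Grin) and metabotropic (Grm) glutamate receptor genes and the GABA-A receptor genes (Gabr with a subunit letter). The rule found 45 genes, 26 for glutamate and 19 for GABA-A receptors, in each of 3 tables, among 40770 genes in the linc-Brn1b table and 42760 in both the Peril and the Fendrr table. The rule uses no measured value.

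RNA was sequenced from homozygous lincRNA knockout mice and their wild-type counterparts, 21 samples in all. The linc-Brn1b strain gave telencephalon at E13.5 (linc-Brn1b+/+ and linc-Brn1b-/-, 2 samples each), telencephalon at E15.5 (2 wild-type and, by the labels, 3 knockout samples) and whole brain at P7 (2 samples of each genotype). The Peril strain, which the labels name linc-Sox2, gave whole brain at E18.5 (2 samples of each genotype), and the Fendrr strain, named linc-Foxf1a in the labels, gave lung at E14.5 (2 samples of each genotype). In every knockout allele a lacZ reporter with a neomycin resistance gene took the place of a lincRNA gene, in hybrid embryonic stem cells of mixed strain, and the mice were backcrossed once to C57BL/6J, so all groups are of mixed background. The labels name no treatment. The tables hold 1 FPKM value per group (fragments per kilobase of transcript, scaled to mapped reads) and 0 values per library, so neither the number of reads behind a value nor its spread between animals is known, and no difference below carries a standard deviation or a test.

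linc-Brn1b was at 1.60, 2.50 and 0.799 FPKM in the wild-type groups at E13.5, E15.5 and P7 and is listed at 0 in all 3 knockout groups, and the lincRNA entry at the Fendrr locus was at 38.4 FPKM in wild-type lung against 0.045 FPKM in knockout lung. At the Peril locus an overlapping lincRNA entry that lies partly outside the deletion went against the labels, with 0.0109 FPKM in wild type but 4.65 FPKM in those labelled knockout, so any direction drawn from the E18.5 pair rests on the labels. The 4 Y-linked genes on a check list summed to 49.2 FPKM in E13.5 wild type, 21.0 FPKM in E15.5 knockout, 23.2 FPKM in P7 knockout and 26.4 FPKM in the E18.5 libraries labelled knockout, and to at most 0.0357 FPKM in the other brain groups, and in lung to 33.6 FPKM in wild type against 0 in knockout. Genotype and the sex of the embryos or pups therefore cannot be told apart in any comparison of genotypes, nor can sex and age from E13.5 to E15.5 or from E13.5 to P7 in either genotype, which touches the X-linked members Gria3, Gabra3, Gabre and Gabrq most directly. In the telencephalon groups the cortical progenitor marker Emx1 was at 32.2 to 48 FPKM, and the 6 hindbrain Hox genes on the marker list were all at or below 0.00978 FPKM. The E15.5 knockout nearly lacked choroid plexus markers, at a summed 2.04 FPKM against 239 FPKM in wild type. The P7 knockout, labelled whole brain, nearly lacked the hindbrain Hox genes, at a summed 0.0496 FPKM against 5.11 FPKM in P7 wild type.

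Glutamate is the main excitatory and GABA the main inhibitory transmitter of the mature brain. AMPA, kainate and NMDA receptors are tetrameric cation channels, metabotropic glutamate receptors couple to G proteins, and GABA-A receptors are pentameric chloride channels built from alpha, beta and, in most synaptic receptors, gamma subunits. Forebrain neurons are known to exchange subunits as they mature, in particular Grin2b for Grin2a, which changes how long the channels stay open. In immature neurons chloride is high, because the importer Slc12a2 (NKCC1) precedes the exporter Slc12a5 (KCC2), and GABA can then depolarise the cell.

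Single codons decide properties for which the subunit mixture matters, and they are shown here because of the family shares given later. For the GABA-A alpha genes these are shares of transcripts with one or the other codon. For the AMPA genes the encoded residue is the same, and the shares only set Gria2 apart from the genes not edited in this way. In the pore of an AMPA receptor subunit lies the Q/R site. The genome encodes glutamine there in all 4 Gria genes, and Adarb1 edits the Gria2 RNA to an arginine codon, which makes channels with Gria2 nearly impermeable to calcium. The capitals mark the Q/R codon in 30 bases of coding exon, read 5′ to 3′ along the coding strand of mm9 (NCBIM37) and identical in the genome and the annotated transcript.
Gria1: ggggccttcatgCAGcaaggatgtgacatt
Gria2: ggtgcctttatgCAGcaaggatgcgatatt
Gria3: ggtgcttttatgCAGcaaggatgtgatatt
Gria4: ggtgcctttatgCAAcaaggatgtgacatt

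These windows lie in Gria1 at chr11:57056584-57056613 (plus strand, exon 11 of 16), in Gria2 at chr3:80510818-80510847 (minus strand, exon 11 of 17), in Gria3 at chrX:38963430-38963459 (plus strand, exon 12 of 17) and in Gria4 at chr9:4464122-4464151 (minus strand, exon 12 of 17). The glutamine codon is CAG in Gria1, Gria2 and Gria3 and CAA in Gria4. FPKM does not measure editing, so the edited share of Gria2 RNA is not known from these tables.

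In the GABA-A alpha subunits the corresponding choice is between histidine and arginine at the benzodiazepine site, which lies between an alpha and a gamma subunit. Receptors with the histidine bind classical benzodiazepines such as diazepam, and those with the arginine do not. The capitals mark this codon, again in 30 bases of coding exon.
Gabra2: gataccttctttCACaatgggaaaaagtca
Gabra3: gataccttcttcCACaatggtaaaaaatca
Gabra5: gacacgttcttcCACaacggcaagaagtcc
Gabra4: gatactttcttcAGGaatggaaagaaatct
Gabra6: gacacttttttcCGGaatgggaaaaagtca

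Gabra2 (chr5:71405729-71405758), Gabra3 (chrX:69746492-69746521) and Gabra5 (chr7:64744246-64744275) carry the histidine codon CAC in exon 5 of 10. Gabra4 (chr5:72032376-72032405) and Gabra6 (chr11:42131134-42131163) carry the arginine codons AGG and CGG in exon 4 of 9. All 5 genes lie on the minus strand.

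Of the 45 genes, 35 reached 5 FPKM in at least 1 of the 8 brain groups, 2 (Gabrq and Grin2c) reached between 1 and 5 FPKM, and 8 stayed under 1 FPKM in every brain group. The AMPA receptor gene Gria2 was the most abundant member in all 8 groups, at 44.3 to 133 FPKM. The map of levels by group shows that the later columns are higher in nearly every family, with the exceptions described below.

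**Figure D1:**
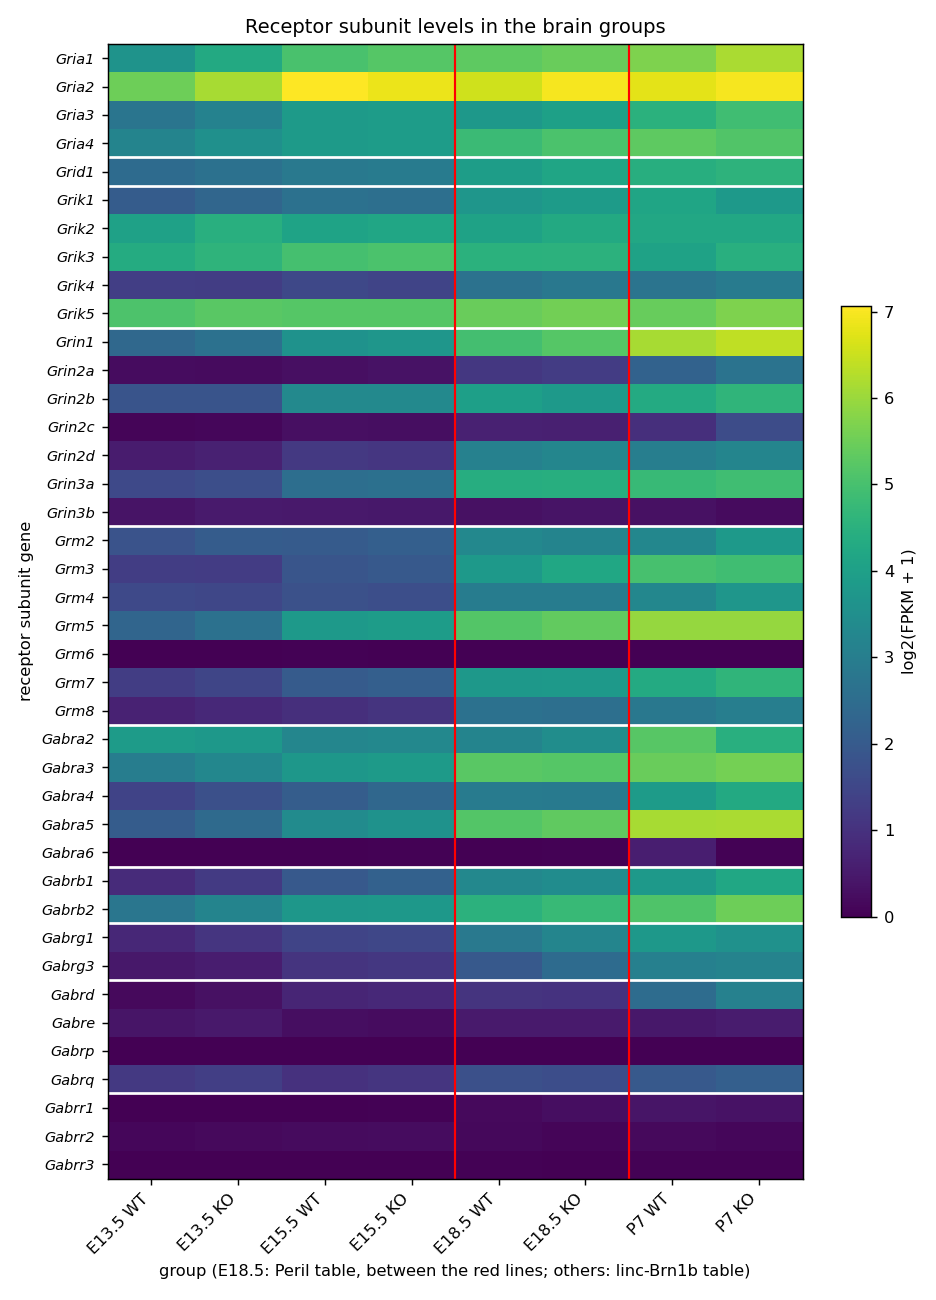
Level of 40 receptor genes in the 8 brain groups, as log2(FPKM + 1) (colour scale), with genes in rows by family (white lines) and groups in columns. E18.5 (between the red lines) is from the separately normalized Peril table, so its colours are not on a common scale with the other ages. Most rows lighten from E13.5 to P7, Gria2 is the brightest row throughout, and Grm6, Gabrp and the 3 Gabrr rows stay dark.

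For the changes with age the 3 linc-Brn1b ages were compared within their table on the log2(FPKM + 1) scale, and a gene was counted as past 2-fold when this log2 difference was at least 1 and its mean over both groups at least 1 FPKM. From E13.5 to E15.5 in wild-type telencephalon 30 members passed the minimum, of which 8 were higher by 2-fold or more (Gria1, Gria2, Gria3, Gabra5, Gabrb1, Grin1, Grin2b and Grm5) and 0 lower, against 2.15% higher and 1.99% lower among all genes. From E15.5 telencephalon to P7 brain 36 members passed, 28 of them higher and 0 lower, against 14.2% and 12.8% of all genes. Over the whole span from E13.5 to P7 the count was 32 higher and 0 lower of 36, against 17.8% and 16.4%. The median log2 difference of the members from E15.5 to P7 was 1.65, and the median over all genes that passed the minimum was -0.10.

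The knockout groups are other animals of the same ages and gave much the same counts. From E13.5 to E15.5 there were 5 higher and 0 lower of 30, where 3.23% of all genes were higher and 4.71% past 2-fold in either direction. From E15.5 to P7 there were 31 higher and 0 lower of 37 (15.7% and 29.2% of all genes), and from E13.5 to P7 again 31 higher and 0 lower of 37 (19.6% and 38.4%). All 28 genes past 2-fold from E15.5 to P7 in wild type were also past it in knockout, which added Gabrq, Grin2b and Grin2c. Of the 37 genes at 1 FPKM or more in a brain group, 33 in wild type and 32 in knockout were higher at each later age of the linc-Brn1b series. The exceptions were Gabra2, Gabrq, Gria2 and Grik3 in wild type and Gabra2, Gabrq, Grik2, Grik3 and Grik5 in knockout. Of the 28 wild-type calls, 3 (Gabrd, Grin2a and Grm8) belonged to genes under 1 FPKM at E15.5 that passed the minimum only through P7. Over the whole span 9 of the 32 passed only through P7. In knockout 3 of 31 calls from E15.5 to P7 (Gabrd, Grin2a and Grin2c) and 7 of 31 from E13.5 to P7 did so. Of the 8 wild-type calls from E13.5 to E15.5, Gabrb1 passed only through E15.5. Genes of this kind could pass only by being higher at the later age. From E15.5 to P7 in wild type Grin2b lay closest to the threshold on its lower side (0.98) and Grik4 on its upper side (1.19).

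**Figure D2:**
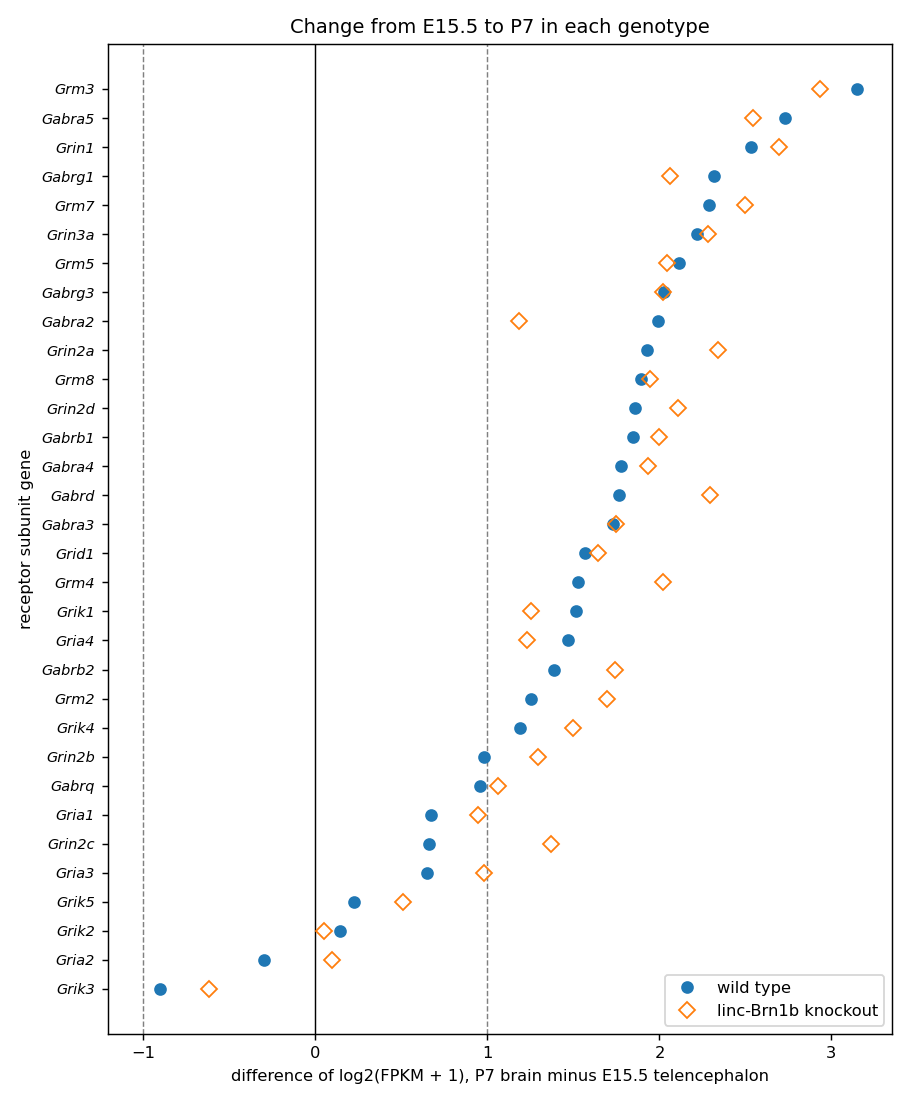
Difference of log2(FPKM + 1), P7 brain minus E15.5 telencephalon, for 32 receptor genes that passed the minimum level in at least 1 genotype (Grin2c only in knockout), in wild type (filled circles) and linc-Brn1b knockout (open diamonds). Dashed lines mark 2-fold. Grm3 and Gabra5 are furthest to the right in wild type, and Grik3 is below zero in both genotypes.

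Age and dissection changed together between E15.5 and P7, from telencephalon to whole brain, and cannot be told apart. Among marker lists, telencephalon markers were lower at P7 in 5 of 5 genes past 2-fold in both genotypes, and in wild type hindbrain Hox genes were higher in 6 of 6 genes, from a summed 0.00822 FPKM to 5.11 FPKM. In knockout the Hox genes did not rise in this way, with 3 of 6 above zero and sums of 0.0134 FPKM and 0.0496 FPKM, while choroid plexus markers went from 2.04 to 308 FPKM (239 to 451.5 FPKM in wild type). Of the 6 neuron markers 4 were higher past 2-fold in wild type with a median difference of 1.15, as were 5 of 5 astrocyte and 4 of 5 oligodendrocyte markers. In such bulk tissue more cells of a type and more RNA per cell cannot be told apart either. The E13.5 to E15.5 comparison stayed within telencephalon, but cell type markers moved there too. In wild type 6 of 6 neuron markers were above zero (median 0.57, 1 past 2-fold) and 5 of 7 radial glia markers below it (median -0.74, 2 past 2-fold). In knockout the medians were 0.60 and -0.65, and choroid plexus markers went from a summed 199.6 to 2.04 FPKM. The part of these in the receptor values was not tested.

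Gria1, Gria2 and Gria3, of the AMPA receptors, differed in wild type more between the telencephalon ages than between E15.5 and P7. Levels at E18.5 are from a table normalized separately and stand beside the others without being compared with them. Gria1 in wild type was at 11.5 FPKM at E13.5, 31.9 at E15.5, 38.6 at E18.5 and 51.3 at P7, and in the knockouts at 18.7, 36, 43.2 and 70.3. Gria2, the subunit whose edited form blocks calcium, was at 44.3 FPKM at E13.5, 133 at E15.5, 92.8 at E18.5 and 108 at P7 in wild type and at 69.3, 115, 124 and 123.3 in the knockouts. Among the linc-Brn1b ages Gria2 thus had its highest wild-type value at E15.5, and its difference from E15.5 to P7 was -0.30 in wild type and 0.10 in knockout. Gria3 was at 5.69 FPKM at E13.5, 13.6 at E15.5, 12.6 at E18.5 and 21.8 at P7 in wild type and at 7.72, 14, 15.1 and 28.7 in the knockouts. Gria4 was at 8.16 FPKM at E13.5, 13.4 at E15.5, 27.4 at E18.5 and 39 at P7 in wild type and at 10.8, 14, 32.3 and 34.2 in the knockouts, and it was the AMPA gene with the largest difference from E15.5 to P7 (1.47 in wild type, 1.23 in knockout) and the smallest from E13.5 to E15.5 (0.66 and 0.35). The differences from E13.5 to E15.5 were 1.57 for Gria2, 1.40 for Gria1 and 1.12 for Gria3 in wild type. In knockout these were 0.72, 0.91 and 0.79, all under the threshold, from higher E13.5 values than in wild type.

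A share within a group does not depend on how libraries or tables were scaled, so family composition is given at all 4 ages, E18.5 included. The E18.5 groups are whole brain of the Peril strain, however. Age, dissection and strain changed together from E15.5 to E18.5, and age and strain from E18.5 to P7, and these cannot be told apart. Values for the knockouts are from linc-Brn1b knockout except at E18.5, where they are from Peril knockout. Gria2 made up 63.6% at E13.5, 69.3% at E15.5, 54.1% at E18.5 and 49% at P7 of the summed FPKM of Gria1 to Gria4 in wild type, and 65%, 64.2%, 57.9% and 48.1% in the knockouts. Gria1 went from 11.5 FPKM and 16.5% of the family at E13.5 to 51.3 FPKM and 23.3% at P7 in wild type, and to 27.4% in P7 knockout. Transcripts other than Gria2, whose Q/R codon is not edited in this way, were thus 30.7% of the family at E15.5 and 51.0% at P7 in wild type, and 35.8% and 51.9% in knockout. The sum of the 4 genes was 69.6 FPKM at E13.5, 192 at E15.5, 172 at E18.5 and 220.0 at P7 in wild type.

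Of the families the kainate receptors had the smallest ratio of summed levels between E15.5 and P7. Grik5, a subunit that needs a Grik1, Grik2 or Grik3 partner to form channels, was the most abundant at 32.9 FPKM at E13.5, 35.9 at E15.5, 42.5 at E18.5 and 42.1 at P7 in wild type and at 36.9, 35.6, 46.5 and 51.2 in the knockouts. Grik2, which can form channels by itself, was at 15.54 FPKM at E13.5, 16.1 at E15.5, 15.8 at E18.5 and 17.9 at P7 in wild type and at 21, 17.2, 18.6 and 17.8 in the knockouts. Grik3 was the member with the lowest difference from E15.5 to P7, -0.90 in wild type and -0.62 in knockout. Its level was 19.2 FPKM at E13.5, 30.7 at E15.5, 21.8 at E18.5 and 16 at P7 in wild type and 23.1, 32.8, 22.2 and 21 in the knockouts, highest at E15.5 in both genotypes. Grik1 was at 3.18 FPKM at E13.5, 5.2 at E15.5, 12 at E18.5 and 16.7 at P7 in wild type and at 4.04, 4.96, 13.6 and 13.2 in the knockouts. Grik4, like Grik5 an obligate partner, was at 1.5 FPKM at E13.5, 1.89 at E15.5, 5.29 at E18.5 and 5.6 at P7 in wild type and at 1.42, 1.74, 6.09 and 6.74 in the knockouts. Both were past 2-fold from E15.5 to P7 in both genotypes (1.51 and 1.25 for Grik1, 1.19 and 1.5 for Grik4).

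Within the kainate family the share of Grik3 was 34.2% at E15.5 and 16.2% at P7 in wild type (35.5% and 19.1% in knockout), while that of Grik1 was 5.78% and 17.0% (5.37% and 12% in knockout). Grik5 held 38.6% to 46.5% in all 8 brain groups. The summed level was 72.4 FPKM at E13.5, 89.9 at E15.5, 97.3 at E18.5 and 98.2 at P7 in wild type, and the P7 sum was 1.09 times that at E15.5.

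The delta receptors bind cerebellins at synapses rather than glutamate. Grid1 was at 4.52 FPKM at E13.5, 6.24 at E15.5, 14.2 at E18.5 and 20.5 at P7 in wild type and at 5.19, 6.63, 16.9 and 22.8 in the knockouts, past 2-fold from E15.5 to P7 with 1.57 in wild type and 1.64 in knockout.

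NMDA receptors all contain Grin1, and their kinetics depend on the Grin2 subunit. Grin1 was at 4.22 FPKM at E13.5, 11.2 at E15.5, 30.2 at E18.5 and 69.4 at P7 in wild type and at 5.24, 12.1, 35.7 and 83.4 in the knockouts, with a log2 difference of 1.22 from E13.5 to E15.5 and 2.53 from E15.5 to P7 in wild type. Grin2b, the subunit of slowly closing juvenile receptors, was at 2.55 FPKM at E13.5, 9.11 at E15.5, 14.8 at E18.5 and 18.9 at P7 in wild type and at 2.6, 9.07, 13.3 and 23.7 in the knockouts. Grin2a, which gives faster closing and is known as the later subunit, was at 0.18 FPKM at E13.5, 0.221 at E15.5, 1.21 at E18.5 and 3.64 at P7 in wild type and at 0.145, 0.27, 1.38 and 5.44 in the knockouts. On the log2 scale the earlier step of Grin2b was the larger in wild type (1.51 from E13.5 to E15.5 against 0.98 from E15.5 to P7). In knockout the Grin2b steps were closer, at 1.48 and 1.29. For Grin2a the later step was the larger in wild type (0.05 against 1.93), with the earlier one between values below the minimum.

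Grin2d, another subunit with slow closing, was at 0.458 FPKM at E13.5, 1.26 at E15.5, 7.59 at E18.5 and 7.19 at P7 in wild type and at 0.577, 1.18, 8.42 and 8.38 in the knockouts. Grin3a, which lowers calcium permeability when it joins a receptor, was at 1.94 FPKM at E13.5, 4.82 at E15.5, 19.96 at E18.5 and 26.1 at P7 in wild type and at 2.25, 5.1, 20.5 and 28.7 in the knockouts. Both were past 2-fold from E15.5 to P7 in both genotypes (1.86 and 2.11 for Grin2d, 2.22 and 2.28 for Grin3a). Grin2c, known from cerebellar granule cells, was the lowest of the 4 Grin2 genes at P7, at 0.926 FPKM in wild type against 2.12 FPKM in knockout, and Grin3b stayed at or below 0.417 FPKM.

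Between E15.5 and P7 the mixture of Grin2 transcripts changed together with age and dissection, which cannot be told apart. Grin2b was itself higher at P7, while its share changed by -22.56 percentage points in wild type and -24.81 in knockout. Grin2d gained 11.77 and 10.18 points and Grin2a 9.80 and 11.22. Grin2b made up 78.5% at E13.5, 84.3% at E15.5, 61.3% at E18.5 and 61.7% at P7 of the summed Grin2 FPKM in wild type, and 76.1%, 84.6%, 56.2% and 59.8% in the knockouts. Grin2a made up 5.55% at E13.5, 2.04% at E15.5, 5.01% at E18.5 and 11.8% at P7 in wild type, and 4.25%, 2.52%, 5.86% and 13.7% in the knockouts, with its lowest share at E15.5 in both genotypes. Per unit of Grin2a there was 14.1 at E13.5, 41.3 at E15.5, 12.2 at E18.5 and 5.21 at P7 of Grin2b in wild type, and 17.9, 33.5, 9.59 and 4.35 in the knockouts. These ratios divide by Grin2a values of at most 0.270 FPKM at E13.5 and E15.5 and are imprecise there. The share of Grin2d was 14.1% at E13.5, 11.7% at E15.5, 31.3% at E18.5 and 23.4% at P7 in wild type. In every group it was above that of Grin2a. At every age Grin2b remained the most abundant Grin2 transcript.

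**Figure D3:**
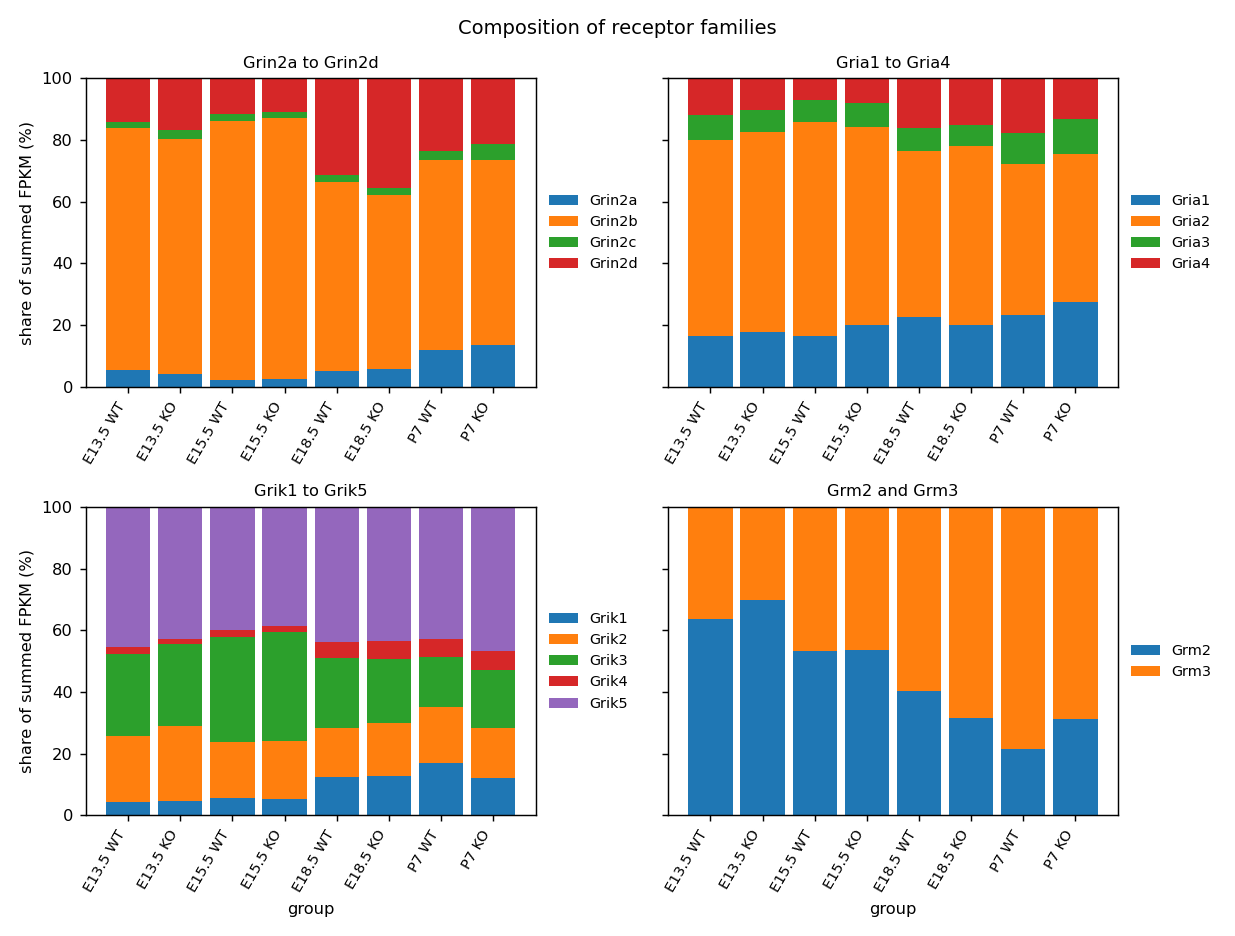
Composition of 4 receptor families in the 8 brain groups: each bar is 1 group, and its colours give each gene's share (%) of the summed FPKM of the family. From E15.5 to P7 the bars show less Grin2b, Gria2, Grik3 and Grm2 and more Grin2a, Grin2d, Gria1, Gria4, Grik1 and Grm3 in both genotypes.

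Metabotropic glutamate receptors fall into group I (with Grm5, coupled to Gq), group II (Grm2 and Grm3) and group III (Grm4, Grm6, Grm7 and Grm8), the last 2 groups coupled to Gi. From E15.5 to P7 all 7 members that passed the minimum were higher by 2-fold or more in both genotypes. Among all genes 14.2% were higher in wild type and 15.7% in knockout. In wild type Grm8 passed only through P7. Grm6, a receptor of retinal bipolar cells, stayed at or below 0.0216 FPKM in brain. Grm5 was at 3.91 FPKM at E13.5, 13.1 at E15.5, 34.9 at E18.5 and 60.2 at P7 in wild type and at 5.19, 13.9, 40.4 and 60.6 in the knockouts. Grm3, which is abundant in astrocytes, had the largest difference of all 45 genes from E15.5 to P7 in wild type (3.15, and 2.93 in knockout). It was at 1.42 FPKM at E13.5, 2.66 at E15.5, 13.1 at E18.5 and 31.4 at P7 in wild type and at 1.37, 2.93, 17.4 and 29.1 in the knockouts. Its group II partner Grm2, a mainly presynaptic autoreceptor, was at 2.5 FPKM at E13.5, 3.05 at E15.5, 8.86 at E18.5 and 8.63 at P7 in wild type and at 3.17, 3.39, 8.04 and 13.2 in the knockouts.

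The order of the group II pair differed between the telencephalon groups and the whole-brain groups. Age, dissection and, at E18.5, strain cannot be told apart in this difference. Grm2 made up 63.7% at E13.5, 53.4% at E15.5, 40.4% at E18.5 and 21.5% at P7 of the pair in wild type, and 69.8%, 53.6%, 31.6% and 31.3% in the knockouts, so that Grm2 was the more abundant at E13.5 and E15.5 and Grm3 at E18.5 and P7 in every group. Astrocyte markers summed to 22.8 FPKM at E15.5 and 311 FPKM at P7 in wild type, and their part in the change of Grm3 was not tested.

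In group III Grm7, a presynaptic receptor of low affinity, was at 1.44 FPKM at E13.5, 3.08 at E15.5, 12.7 at E18.5 and 18.9 at P7 in wild type and at 1.78, 3.38, 13 and 23.7 in the knockouts. It overtook Grm4 between E13.5 and E15.5, with shares of 36.1% and 48.4% at E13.5 and 48.3% and 37.0% at E15.5 in wild type. Grm4 was at 1.93 FPKM at E13.5, 2.36 at E15.5, 6.81 at E18.5 and 8.67 at P7 in wild type and at 1.84, 2.25, 6.81 and 12.2 in the knockouts. Grm8 was at 0.61 FPKM at E13.5, 0.92 at E15.5, 5.21 at E18.5 and 6.13 at P7 in wild type and at 0.761, 1.09, 4.95 and 7.06 in the knockouts. The summed level of the 8 Grm genes was 5.13 times as high at P7 as at E15.5 in wild type and 5.24 times in knockout.

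Among the GABA-A alpha subunits Gabra2 led at E13.5 and was the one gene with a lower level at E15.5 than at E13.5. It was at 13.6 FPKM at E13.5, 8.4 at E15.5, 8.13 at E18.5 and 36.4 at P7 in wild type and at 12.6, 8.76, 9.94 and 21.1 in the knockouts, with a difference of -0.64 from E13.5 to E15.5 in wild type and -0.48 in knockout, neither past 2-fold. Gabra5, known from extrasynaptic receptors of the hippocampus, was at 3.16 FPKM at E13.5, 9.56 at E15.5, 35.5 at E18.5 and 69.2 at P7 in wild type and at 4.43, 11.2, 39.4 and 70.3 in the knockouts and became the most abundant alpha gene at P7, with a difference of 2.73 from E15.5 to P7 in wild type and 2.55 in knockout. In the E18.5 table Gabra5 and Gabrg3 carry the same gene position, so reads may have been split between them there.

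Gabra3 was at 6.95 FPKM at E13.5, 12.3 at E15.5, 37 at E18.5 and 43.1 at P7 in wild type and at 8.57, 13.3, 36.1 and 47.2 in the knockouts, and was the most abundant alpha gene at E15.5 in both genotypes. Gabra4, an arginine subunit known from extrasynaptic receptors of thalamus and hippocampus, was at 1.66 FPKM at E13.5, 3.26 at E15.5, 6.67 at E18.5 and 13.6 at P7 in wild type and at 2.33, 4.16, 6.4 and 18.7 in the knockouts. Gabra6, a subunit of cerebellar granule cells, was at most 0.0353 FPKM in the brain groups other than P7 wild type, where it was at 0.519 FPKM.

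The leading alpha transcript of the wild-type groups was therefore Gabra2 at E13.5, Gabra3 at E15.5 and E18.5 and Gabra5 at P7, and of the knockout groups Gabra2, Gabra3, Gabra5 and Gabra5. The share of Gabra2 was 51.9% at E13.5, 23.3% at E15.5, 8.47% at E18.5 and 19.2% at P7 in wild type, and 42.8%, 21.9%, 9.69% and 10.6% in the knockouts. That of Gabra5 was 12% at E13.5, 26.6% at E15.5, 36.9% at E18.5 and 36.5% at P7 in wild type, and 15.1%, 28%, 38.5% and 35.1% in the knockouts. The 2 genes with the arginine codon shown above together made up 6.28% to 10.4% of alpha FPKM in the 8 brain groups, and the remainder in every group came from genes with the histidine codon.

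The beta subunits form the GABA site together with alpha. Gabrb2, the main adult beta subunit, was at 5.78 FPKM at E13.5, 12.3 at E15.5, 22.1 at E18.5 and 33.7 at P7 in wild type and at 8.07, 12.6, 26.3 and 44.3 in the knockouts. Gabrb1 was at 0.819 FPKM at E13.5, 2.91 at E15.5, 8.82 at E18.5 and 13 at P7 in wild type and at 1.29, 3.59, 9.93 and 17.3 in the knockouts. Both were past 2-fold from E15.5 to P7 in both genotypes (1.39 and 1.74 for Gabrb2, 1.85 and 2.00 for Gabrb1).

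A gamma subunit completes the benzodiazepine site. Gabrg1 was at 0.736 FPKM at E13.5, 1.75 at E15.5, 6.29 at E18.5 and 12.7 at P7 in wild type and at 1.14, 1.86, 8.32 and 10.9 in the knockouts, and Gabrg3 at 0.365 FPKM at E13.5, 1.08 at E15.5, 2.96 at E18.5 and 7.47 at P7 in wild type and at 0.491, 1.22, 4.56 and 7.98 in the knockouts. Gabrd replaces gamma in extrasynaptic receptors that carry tonic currents. It was at 0.133 FPKM at E13.5, 0.661 at E15.5, 1.08 at E18.5 and 4.64 at P7 in wild type and at 0.237, 0.765, 1.04 and 7.64 in the knockouts. Gabrq, the theta subunit, stayed between 1.02 and 3.43 FPKM.

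Most GABA-A genes sit in clusters, and on chromosome 5 Gabra2 went the other way from its cluster neighbours between E13.5 and E15.5. In mm9 16 of the 19 genes lie in 5 clusters, of which the one with Gabrr1 and Gabrr2 on chromosome 4 held no gene at 1 FPKM. The cluster at chr5:71142286-72529628 holds Gabrg1, Gabra2, Gabra4 and Gabrb1. From E13.5 to E15.5 in wild type Gabra2 differed by -0.64 while its neighbours Gabrg1, Gabra4 and Gabrb1 differed by 0.66, 0.68 and 1.10. Of these only Gabrb1 was past 2-fold. From E15.5 to P7 the 4 genes differed by 1.78 to 2.32 in wild type, all past 2-fold. The X-linked cluster at chrX:69501338-70087941 holds Gabra3 (1.73), Gabrq (0.95) and Gabre, which stayed at or below 0.446 FPKM in brain. In the chromosome 5 cluster the beta gene Gabrb1 lies on the opposite strand to the others.

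Summed over families, GABA-A transcripts gained on ionotropic glutamate receptor transcripts after E15.5. For each unit of summed GABA-A FPKM there were 2.42 at E13.5, 3.02 at E15.5, 1.6 at E18.5 and 1.23 at P7 units of summed AMPA, delta, kainate and NMDA FPKM in wild type, and 2.62, 2.69, 1.7 and 1.3 in the knockouts. The alpha sum was 5.26 times as high at P7 as at E15.5 in wild type (5.00 in knockout), the NMDA sum 4.65 times (5.38), the AMPA sum 1.15 times (1.43) and the kainate sum 1.09 times (1.19). All 45 genes together took 0.103% of summed FPKM at E15.5 and 0.249% at P7 in wild type. The pair of chloride transporters changed order in the same span. Slc12a5 was at 4.89 FPKM at E13.5, 9.04 at E15.5, 38 at E18.5 and 51.3 at P7 in wild type and Slc12a2 at 15.48 FPKM at E13.5, 12.5 at E15.5, 10.3 at E18.5 and 12 at P7, so that Slc12a5 per Slc12a2 was 0.316 at E13.5, 0.723 at E15.5, 3.69 at E18.5 and 4.26 at P7 in wild type, and 0.326, 0.766, 3.53 and 6.88 in the knockouts. Slc12a2 is also made by choroid plexus and glia, and the ratio is one of tissue, not of neurons.

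Genes that work beside the receptors were followed on 9 hand-written lists, which cover auxiliary subunits, scaffolds, anchoring and editing genes as well as GABA-B and glycine receptors and vesicular and chloride transporters. Of the 57 listed genes 56 were in the table and 55 passed the minimum from E15.5 to P7 in wild type, with 21 higher and 1 lower by 2-fold or more and a median difference of 0.85, against 14.2% higher, 12.8% lower and a median of -0.10 among all genes. Among AMPA receptor auxiliary subunits 7 of 15 were higher past 2-fold, among them Cacng3 (1.83), Shisa9 (1.88) and Nptx2 (2.04), whereas the most abundant TARP genes at E15.5, Cacng4 and Cacng7, were at -0.28 and -0.15. Of the kainate auxiliary genes Neto1 was past the fold (1.59) and Neto2 was not (0.48). Of 14 glutamate receptor scaffolds Dlg2, Dlgap1 and Shank3 were higher past 2-fold (1.61, 1.02 and 1.48) and Homer3 was lower (-1.34).

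On the GABA side 0 of 10 anchoring and trafficking genes were past 2-fold, the anchor Gphn being at 0.75 and the receptor-associated protein gene Gabarap at -0.44. Both GABA-B receptor genes were past it, with 1.18 for Gabbr1 and 2.69 for Gabbr2. Of the glycine receptor genes Glrb, Glra1 and Glra3 were past 2-fold (2.65, 1.69 and 1.86), and the embryonic alpha subunit gene Glra2 was not (0.41). Of the vesicular transporters Slc17a7, Slc17a6 and Slc17a8 were past it (2.61, 1.58 and 1.65), with 0.87 for the GABA transporter Slc32a1. Glra1, Glra3 and Slc17a8 were at 0, 0.213 and 0.272 FPKM at E15.5 in wild type. They passed the minimum only through P7 and so could pass only by being higher there. They are among the listed genes counted as higher above. The editing enzyme of the Gria2 Q/R site, Adarb1, was at 4.82 FPKM at E13.5, 7.22 at E15.5, 12.9 at E18.5 and 21.4 at P7 in wild type, a difference of 1.45 from E15.5 to P7, while Gria2 itself was at -0.30.

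Between knockout and wild type a member was counted when its log2 difference was at least 0.5. At E13.5 the count was 2 higher and 0 lower of 29 that passed the minimum, against 2.72% higher and 7.14% lower among all genes. These were Gria1 (0.66, 11.5 FPKM in wild type against 18.7 FPKM in knockout) and Gria2 (0.63, from 44.3 FPKM to 69.3 FPKM). Most members leaned the same way, with 25 of 29 above zero and a median of 0.27, while 58.9% of all genes were above zero with a median of 0.06. Of 6 neuron markers 5 were above zero as well, with a median of 0.33, although their sum was 1366 FPKM in wild type against 1288 FPKM in knockout. Of the pathway genes 0 were higher and 2 lower, Gabarap (-0.62) and Gabarapl2 (-0.64). Whether the neuron content of the dissections took part was not tested. The lean of the members was not particular to E13.5. Above zero were 27 of 34 at E15.5 (median 0.07), 29 of 37 at P7 (0.19) and 29 of 36 in the E18.5 pair (0.15). Of all genes 53.5%, 52.2% and 50.8% were above zero in these comparisons.

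At E15.5 the count was 0 higher and 0 lower of 34, against 0.251% and 0.34% of all genes, and the members lay between -0.21 (Gria2) and 0.28 (Gabra4). Gria1 and Gria2, past the fold at E13.5, were at 0.17 and -0.21. Choroid plexus markers were lower in the E15.5 knockout in 4 of 4 genes, with a sum of 239 FPKM in wild type against 2.04 FPKM in knockout, but no member differed with them past the fold.

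At P7 the count was 4 higher and 2 lower of 37, against 3.34% and 3.29% of all genes. Higher in knockout were, among others, Grin2c (0.70), Gabrd (0.61) and Grm2 (0.56), and among those lower was Gabra2 (-0.75). Gabra2 was at 36.4 FPKM in wild type against 21.1 FPKM in knockout, which put it at 19.2% and 10.6% of alpha FPKM. Gabrd was at 4.64 against 7.64 FPKM, Grm2 at 8.63 against 13.2 FPKM, and Grin2c, which passed the minimum only through the knockout, at 0.926 against 2.12 FPKM. Just under the fold lay Grin2a (0.47). Of the pathway genes 7 were higher and 0 lower: Nptxr, Nptx1, Cacng3 and Cacng5 among AMPA auxiliary genes, the scaffolds Shank1 and Shank3, and Slc17a7.

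**Figure D4:**
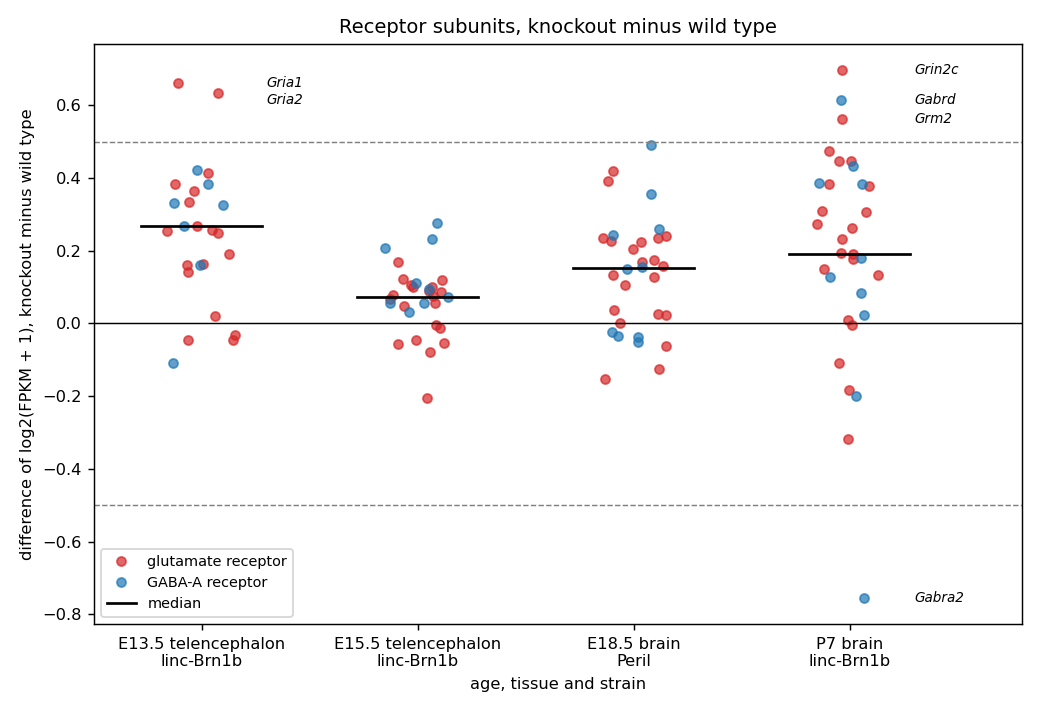
Difference of log2(FPKM + 1), knockout minus wild type, for glutamate (red) and GABA-A (blue) receptor genes that passed the minimum level in the 4 brain comparisons, with the median of all that passed as a bar, dashed lines at 0.5 and -0.5 and names for the genes beyond them. Gria1 and Gria2 lie above the line at E13.5, no gene lies beyond it at E15.5 or in the E18.5 pair, and Grin2c, Gabrd and Grm2 lie above and Gabra2 below it at P7.

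The P7 groups also differed in regional markers. All 8 cerebellar granule cell markers were lower in the P7 knockout, from a summed 126 to 58.7 FPKM, the 6 that passed the minimum by 0.5 or more. This sum is not specific to cerebellum. In wild-type telencephalon the list summed to 107 FPKM at E13.5 and 92.4 FPKM at E15.5, with Zic1 at 53.0 and Neurod1 at 24.9 at E13.5. Barhl1 and En2, at most 0.0182 FPKM there, were at 4.26 and 1.87 FPKM in P7 wild type against 0.939 and 0.577 FPKM in knockout. Of 4 Purkinje cell markers 3 were lower, 2 of them by 0.5 or more, from a summed 69 to 46 FPKM. Pcp2 was at 14.7 FPKM against 1.48 FPKM, while Calb1 and Itpr1 differed by only -0.08 and 0.04. All 6 hindbrain and spinal cord markers were lower, from 0.377 to 1.54 FPKM in wild type to at most 0.0221 FPKM in knockout, where Hoxa3, Hoxb2 and Hoxc4 are listed at 0. All 5 oligodendrocyte markers were lower, from a summed 541 to 317 FPKM. Telencephalon markers summed to 123.4 and 126 FPKM. The cortical glutamate transporter Slc17a7 was at 102 FPKM in wild type against 187 FPKM in knockout. The other vesicular glutamate transporters differed less, with Slc17a6 at 48.3 against 45.6 FPKM and Slc17a8 at 2.99 against 3.44 FPKM. The part of this regional difference in the P7 values of Gabra2, Grm2, Gabrd, Grin2c and Gabra6 was not tested, and genotype, sex and the composition of the pieces cannot be told apart.

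**Figure D5:**
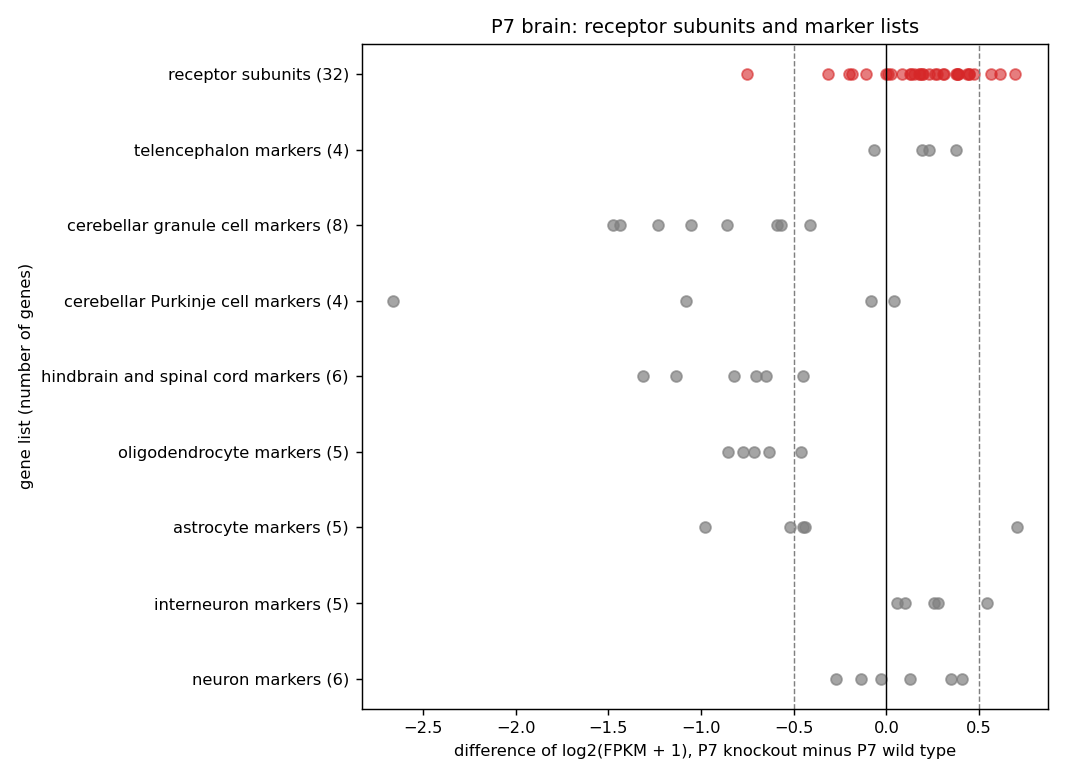
Difference of log2(FPKM + 1), P7 knockout minus P7 wild type, for 32 receptor genes that passed the minimum (red) and for genes of 8 marker lists (grey), with dashed lines at 0.5 and -0.5. All cerebellar granule cell, hindbrain and oligodendrocyte markers lie below zero, the 5 interneuron markers above it, and the receptor genes spread from -0.75 to 0.70.

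In the E18.5 pair from the Peril strain the count was 0 higher and 0 lower of 36, against 1.54% and 1.06% of all genes, with a median of 0.15. The nearest to the fold was Gabrg3 (0.49), whose position in that table is shared with Gabra5 (0.15), followed by Gria2 (0.42) and Grm3 (0.39). In the libraries labelled knockout 6 of 6 hindbrain markers were higher, from a summed 4.15 to 8.5 FPKM, and 3 of 4 Purkinje cell markers were lower.

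In E14.5 lung of the Fendrr strain, a tissue outside the brain, 5 members reached 1 FPKM and 4 passed the minimum, of which 0 were past the fold in either direction, against 1.8% and 1.23% of all genes. Grik5 was at 9.13 FPKM in wild type against 9.55 FPKM in knockout, Gria3 at 7.3 and 8.96 FPKM, Grik4 at 1.88 and 1.92 FPKM and Gabra3 at 1.22 and 2.04 FPKM. The surfactant gene Sftpc was at 819 and 871 FPKM, so the dissections held lung. Of the 4 members that passed the minimum Gabra3 had the largest difference (0.45). All 5 cardiac muscle markers were higher in the knockout lung, from a summed 292 to 899 FPKM, and their part in the lung values was not tested.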

How the data were processed

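TruSeq RNA-seq libraries of mouse tissue were sequenced by the authors, who used TopHat2 for alignment to mm9, Cufflinks (version 2.0.2 in the submitters' processing notes) for transcript assembly and Cuffdiff2 for expression. The values used here are the FPKM the authors deposited, 1 per gene and group and scaled across the libraries of a table. The deposited log2 fold changes, test statistics, p-values, q-values and significance calls are the authors' own comparisons and were not used. No column of an unmapped sample was used. In the linc-Brn1b table the 5 columns that repeat each group's value were identical (largest difference 0).

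Members were found by symbol. Differences were taken as log2(FPKM + 1), which understates changes of low genes, among genes with a mean of at least 1 FPKM over the 2 groups compared. They were counted at 1 or more between ages and 0.5 or more between genotypes and set beside the share of all genes past the same limit. Levels were compared only within a table. Family shares are percentages of summed FPKM. Members at 5 FPKM or more in a brain group were described singly, except a few that are not reported here, and other genes only from lists written by hand. The members and lists were chosen with earlier results of these data known. Depth is unknown. Sequences were read from the NCBIM37 genome with GENCODE vM1 transcripts, in which all 45 symbols matched. Calculations used Python 3.11.15, numpy 2.4.6 and pandas 2.3.3, and the counting step was tested on simulated data. Alternatives were another pseudocount, no minimum or one of 5 FPKM, centring on the median, other fold thresholds, and shares of fragments or of members above 1 FPKM.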

Additional observations from a re-analysis of the deposited data

How the results depend on the processing

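No paired analysis was possible because the tables hold 1 value per group and none per library, and for the same reason no sample could be left out. With a pseudocount of 0.1 the members past 2-fold from E13.5 to E15.5 in wild type numbered 13 in place of 8, and those past 0.5 between genotypes 4 in place of 2 at E13.5, 1 in place of 0 in the E18.5 pair and 1 in place of 0 in lung. With a threshold of 0.5 between ages the E13.5 to E15.5 counts were 22 in wild type (21 higher and 1 lower) and 16 in knockout, in place of 8 and 5. With a threshold of 1 between genotypes 0 members were left at E13.5 and 0 at P7, in place of 2 and 6. The change of share from E15.5 to P7 was -11.32 percentage points for Gabra2 in the knockout groups, in place of -4.13 in wild type. Without a minimum level, with a minimum of 5 FPKM and with centring on the median of all genes, the counts of members stayed within 1.5 times those given, and shares of fragments or of members above 1 FPKM left the direction of the 5 changes of share tried as it was. Among the differences of single members, the other pseudocount moved 17 and centring 8 across a threshold or across zero, and no called difference changed sign.

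Alternatives for the genes of the pathway lists, chosen after seeing the data, gave the following. From E13.5 to E15.5 in wild type 4 were past 2-fold in place of 9 with a minimum of 5 FPKM and 23 with a threshold of 0.5, and in knockout 9 in place of 4 with a pseudocount of 0.1 and 20 with a threshold of 0.5. From E15.5 to P7 in wild type the threshold of 0.5 gave 34 in place of 22. Between genotypes 4 were past 0.5 in place of 2 at E13.5 with a pseudocount of 0.1, and with a threshold of 1 the counts were 0 at E13.5, 0 at P7 and 0 in lung, in place of 2, 7 and 1. In lung a minimum of 5 FPKM also left 0. Leaving out the 4 X-linked members, likewise chosen later, changed no count between genotypes. Differences between genotypes cannot be set against the spread between animals in any of these settings.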

Other observations

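The 8 receptor genes under 1 FPKM in every brain group were Gabra6, Gabre, Gabrp, Gabrr1, Gabrr2, Gabrr3, Grin3b and Grm6. Their highest brain value was 0.519 FPKM, for the cerebellar granule cell gene Gabra6 in P7 wild type. Gabrr1 to Gabrr3 encode the rho subunits, best known from retinal bipolar cells, as is Grm6. In wild type Gabrr1 was at 0.0181 FPKM at E15.5 and 0.331 FPKM at P7, and the photoreceptor and bipolar markers on the retina list were all at or below 0.438 FPKM in the brain groups. Gabre, at most 0.446 FPKM in brain, was at 1.09 FPKM in wild-type lung against 0.851 FPKM in knockout lung. It was the only GABA-A gene besides Gabra3 to reach 1 FPKM there.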
